A study of Pan troglodytes with 8 samples.

Results

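The chromatin regions described here have a chimpanzee and a gorilla identifier in the deposited count table and no human one. They were taken by that rule alone and number 1071 of the 211348 regions with a chimpanzee identifier, or 0.507%. The rule did not read their counts. How regions entered the table was not examined, so identifiers and accessibility may be linked. Regions with identifiers in all 3 species number 198933. "Missing in human" means here that the table holds no human identifier for the region, and what set that was not tested. The signal is ATAC-seq, in which a transposase cuts and tags open chromatin, counted as reads per region in chimpanzee cells only, so nothing here measures human or gorilla chromatin. The cells came from cerebral organoids, self-organised neural tissue, grown from the chimpanzee induced pluripotent stem cell line SandraA from 9000 cells each and collected at week 8, give or take 3 days. Sorting separated radial glia of the apical (aRG) and of the basal kind (bRG), intermediate progenitors (bIP, also basal) and BCL11B-positive neurons (N), and each population gave 2 libraries, 8 in all. The labels name no other genotype, treatment or line, so all groups share 1 line and 1 stage, and they do not say whether the 2 libraries came from separate cultures. The p-values therefore measure only the spread between these libraries.

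Regulatory DNA can be lost on one lineage without any change to a protein. A well-known case is a conserved enhancer absent from the human genome near GADD45G, a growth-arrest gene. Great apes share most of their open chromatin, so a region found in chimpanzee and gorilla but not in human is a candidate for a change on the human branch, or for a place where the human assembly or the matching of regions differs. In the developing cortex, apical radial glia divide at the ventricle, basal radial glia are their detached relatives, intermediate progenitors divide a few more times and mostly make neurons, and each step closes some regulatory elements and opens others. On either side of each member, the nearest region with a gene was looked at, up to 50 kb away. None of the 15 genes listed as known cases of human-lineage change was the gene of such a region. How often this holds for other regions was not counted.

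The libraries held 24913928 to 34845193 counts, of which 0.615 to 0.771% fell in the members. Regions assigned to 5 of 5 radial glia markers (SOX2, PAX6, HES1, FABP7, VIM) were summed as CPM, counts scaled to a common library total, and came to 428 to 477 CPM in aRG, 397 to 423 in bRG, 176 to 232 in bIP and 103 to 112 in N. Those of 5 of 6 neuronal markers summed to 243 to 256 in aRG, 223 to 242 in bRG, 392 to 399 in bIP and 381 to 386 in N. Those of 3 of 3 intermediate progenitor markers were highest in bIP, at 156 to 170, and lay between 102 and 131 in the other libraries. Those of 4 of 4 basal radial glia markers (HOPX, TNC, PTPRZ1, LIFR) were no higher in bRG, at 215 to 222, than in aRG, at 220 to 247, and lay between 106 and 138 in bIP and N. Regions of 3 of 3 choroid plexus markers moved with the glia, from 35.8 to 39.1 in aRG to 8.1 to 9.15 in N. Regions of 4 of 4 interneuron markers went from 185 to 217 in aRG to 76.6 to 81.6 in N, and those of 3 of 3 mesenchyme markers were 48.7 to 63.5 in aRG and 37.3 to 39.2 in N. The part of these cells in any result below was not tested.

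The members were of similar size to other regions, and their levels in glia were higher than at regions present in all 3 species. Their median width was 795 bp, with 5th and 95th percentiles of 315 and 1652 bp, against 858 bp over all regions. The gorilla interval had a width within 5% of the chimpanzee one for 975 members, or 91%. Median levels were 1.83 CPM per kilobase for members in both aRG libraries, against 1.45 and 1.47 for regions present in all 3 species, and 1.92 and 1.95 in bRG, against 1.48 and 1.5. In bIP they were 1.8 and 1.72 against 1.69 in both libraries, and in N 1.96 and 1.95 against 1.91 and 2.08. The other classes lacking an identifier were above the members in every population. In aRG, regions with no gorilla identifier read 2.51 and 2.41, and regions with a chimpanzee identifier only 3.7 and 3.59. These medians were compared as a description only. A called peak in at least 1 of the 4 population lists overlapped 810 members, 75.6%, against 64.4% of all regions and 96.6% of the 2123 regions known in chimpanzee only. No list covered 24.4% of members, 35.6% of all regions and 3.44% of those known in chimpanzee only. Shares with a peak, and levels, may thus depend on how regions entered the table, which was not tested. By population, 429 members were in the aRG list, 455 in that of bRG, 389 in that of bIP and 428 in that of N. The N list alone covered 169 members, 15.8% against 11.3% of all regions. Every other list alone also covered a larger share of members. These were 4.11% against 2.12% for aRG, 5.88% against 2.76% for bRG and 6.35% against 4.54% for bIP. All 4 lists covered 162, 15.1% against 17.7%.

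The members were spread over the genome. They formed 926 separate places when gaps of up to 50 kb were joined, of which 829 held a single member and 97 held 2 or more. Chromosome X carried 62 members. In the whole table only 9 regions on chimpanzee X had a human identifier, so a missing human identifier was the rule on X and not a mark of the members. The table gives no closest gene for a member. A neighbour gene was therefore taken from the nearest flanking region within 50 kb that had one, which named 864 distinct genes beside 979 members, at a median gap of 5343 bp to that region. "Beside" a gene means below that such a region is near, and the gene itself may lie much farther away, by a distance that the table gives for the region in a build it does not state. Of the 979, 207 were beside a gene with a protein-coding symbol, and 73 were beside a long non-coding RNA of the LINC series. The same counts were not made for other regions.

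The spacing of the flanking regions showed where the human genome is shorter. For each member, the nearest region on either side with identifiers in all 3 species was found, and the distance between these flanks was compared across the builds panTro6, hg38 and gorGor6. It could be measured for 938 members. In 238 of them, 25.4%, the human distance was shorter than the chimpanzee one by at least the member's own width. In these, the gorilla distance matched within 0.5 of that width. Both held around 1.98% of the regions with identifiers in all 3 species. Those regions are present in human by definition, so their own absence cannot shorten an interval. Their flanks also lay closer in chimpanzee, at a median of 16812 bp against 23956 bp for members. How far these points set the difference was not tested. Members between the same flanks share a distance, so the members are not independent and the share is a description. The human genome was equal in spacing to both apes, by the same tolerance, around 218 members (23.2% against 71.6%) and longer around 74 (7.89% against 3.84%). The remaining 408, 43.5%, differed in gorilla, with or without a difference in human, or fell between the limits.

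**Figure D1:**
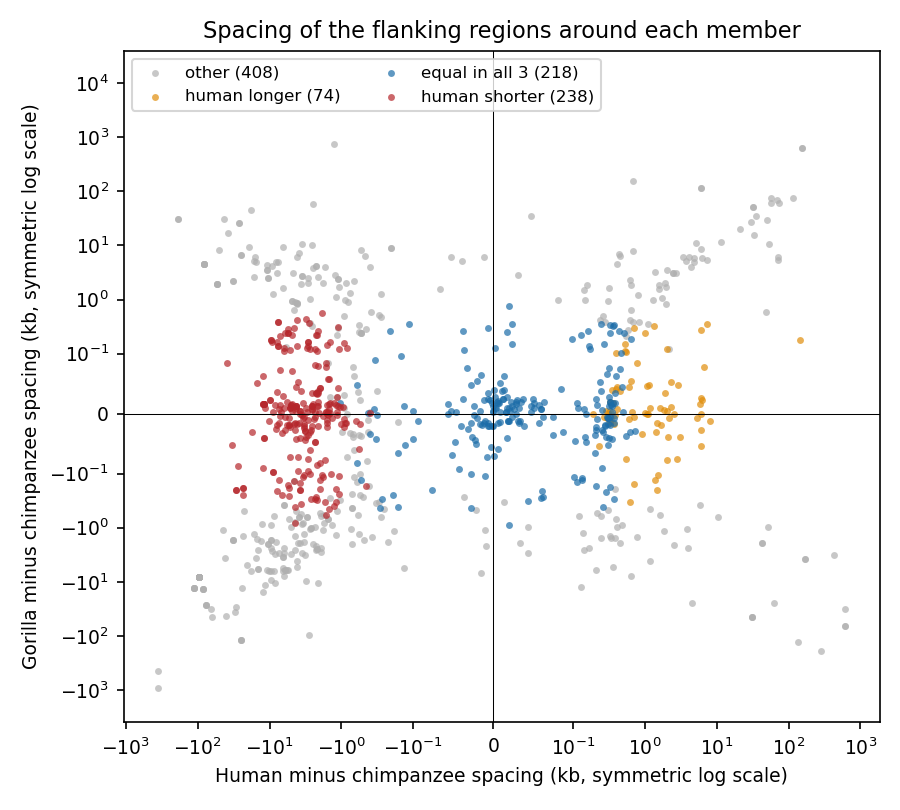
Human minus chimpanzee spacing (horizontal) against gorilla minus chimpanzee spacing (vertical) of the regions that flank each of the 938 members measured, in kilobases on symmetric log axes. Red points are the 238 members with a shorter human spacing and an unchanged gorilla one, and blue points are the 218 with equal spacing.

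The 238 members with a shorter human interval lay in 211 intervals. In 188 of these the member was alone, 20 held 2, 2 held 3, and 1 held 4. The human shortfall ran from 401 to 38827 bp with a median of 3296 bp. Where the tolerance was eased so that a shortfall of 0.5 of the width sufficed, 277 members qualified. These distances describe the intervals, and no alignment was made of the members themselves.

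Accessibility of the members followed the 4 populations about as often as it did elsewhere. Of 1035 members with enough reads to test, 757 (73.1%) differed among the populations by edgeR's quasi-likelihood test at a Benjamini-Hochberg adjusted p under 0.05 over all regions, and so did 73.5% of all 198227 regions tested. The other 36 members had too few reads. Among the 757, the highest mean lay in N for 298 (39.4% against 43.1% of all called regions), in aRG for 195 (25.8% against 25.7%), in bRG for 140 (18.5% against 14%) and in bIP for 124 (16.4% against 17.3%). In the heat map of these regions the aRG and bRG libraries looked alike, and bIP was mostly intermediate.

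**Figure D2:**
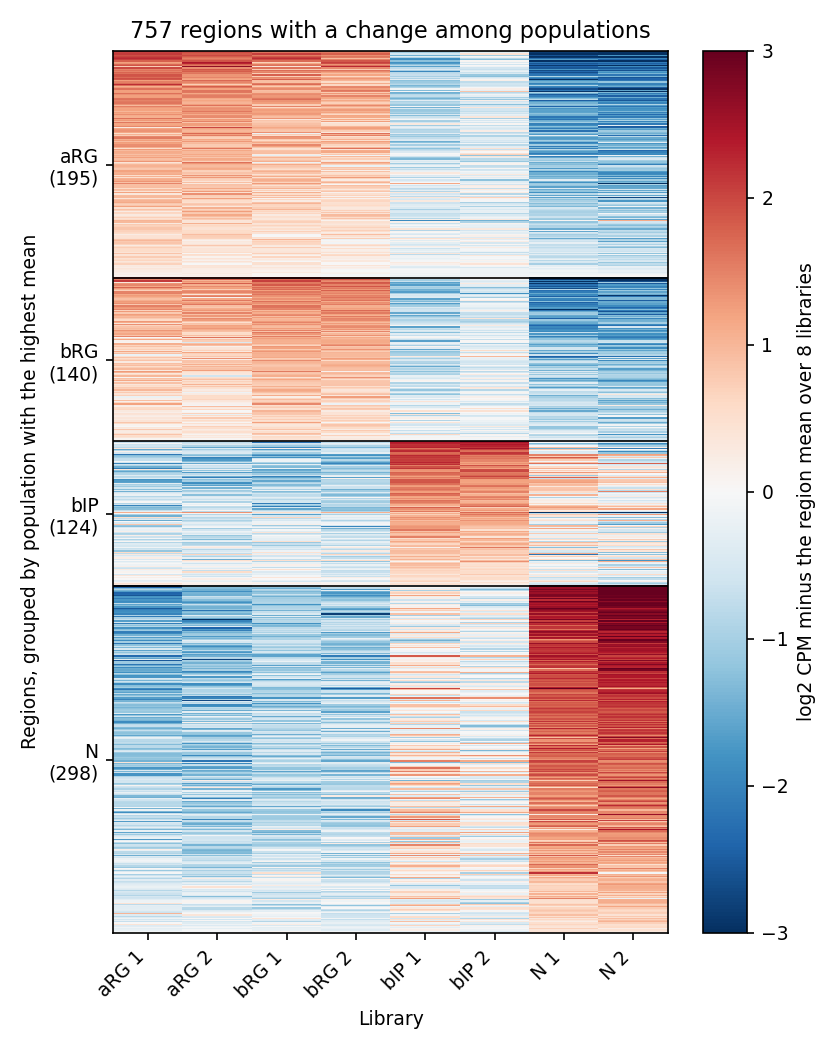
Centred log2 CPM of the 757 members called among the populations (one line per region) in the 8 libraries, in 4 blocks by the population with the highest mean CPM (195 aRG, 140 bRG, 124 bIP, 298 N). Red is above and blue below the region's own mean, and members highest in aRG or bRG are mostly blue in the N libraries.

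Against aRG, 707 members changed in neurons, 68.3% of the 1035, where 69.0% of all regions did. Of these 350 were higher and 357 lower, or 33.8% and 34.5%, against 37.2% higher and 31.7% lower over all regions. Against bRG, 707 also changed, with 67.9% for all regions, of which 355 were higher and 352 lower (37.5% and 30.4% for all regions). Between bIP and aRG, 500 members changed, 48.3% against 47.2% of all regions. In bIP 242 were higher and 258 lower (23.4% and 24.9%), with 24.5% and 22.6% for all regions. Between bIP and bRG, 468 changed, 45.2% against 42.9%, and 219 were higher and 249 lower (21.2% and 24.1%), with 22.4% and 20.4% for all regions. Between N and bIP, 465 changed, 44.9% against 47.6%, and 243 were higher and 222 lower (23.5% and 21.4%), with 25% and 22.6% for all regions. Without the bIP 1 library the 500 calls between bIP and aRG came to 328, and the 468 between bIP and bRG to 291. No member was called between bRG and aRG by edgeR or by DESeq2, and 0% of all regions were; 25 members had an unadjusted p under 0.05.

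**Figure D3:**
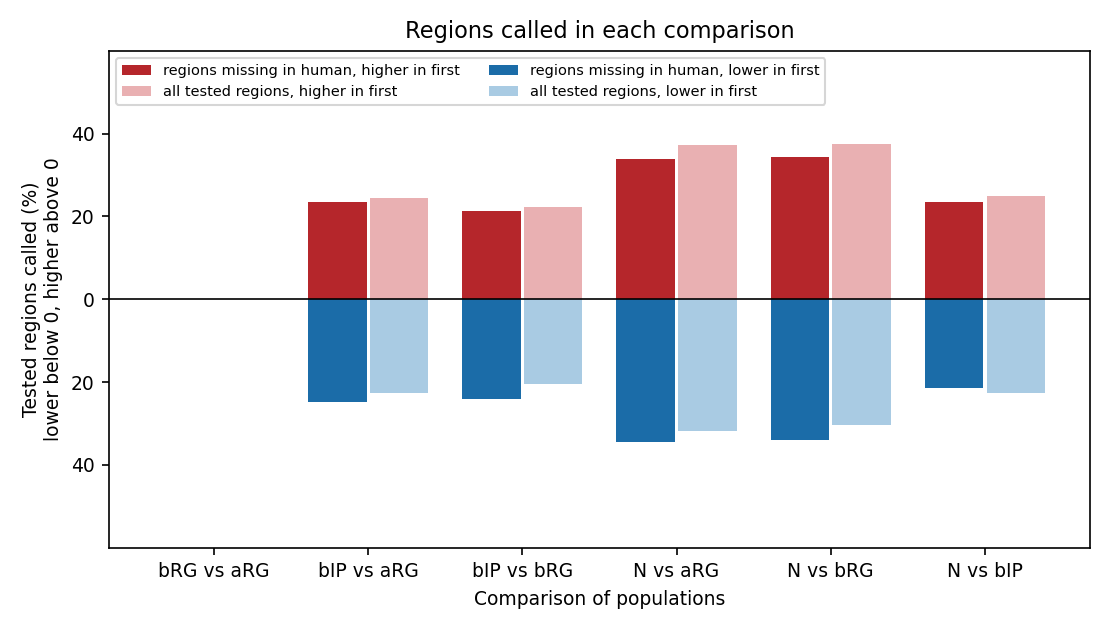
Share of tested regions called higher (above 0) or lower (below 0) in the population named first, for each of the 6 pairs, in percent. Dark bars are the 1035 members tested and pale bars all 198227 regions, and each dark bar is within 4 percentage points of its pale neighbour.

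The median member also moved a little less towards neurons. Its log2 fold change between N and aRG was -0.03, against 0.13 for all regions, and between N and bRG it was 0.00 against 0.17. Between bIP and aRG it was -0.08 against 0.05, and between N and bIP -0.12 against -0.01. The sign of these medians depended on the scaling: with library totals alone the N against aRG median was 0.09 and the median of all regions 0.26, and with relative log expression factors they were -0.13 and 0.03, so the members lay 0.16 below all regions each time. Among regions that overlap a called peak the order turned, with 0.14 for members and 0.11 for all.

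The members described next were taken for a large rise in N, from aRG (the first ones) or from bIP (the last). Low values in the group compared, its gap to N and the small p-value follow from the choice. Beside ZNF385D, a zinc-finger gene, chr3:22007123-22007708 had 0.0783 and 0.21 CPM in aRG, 0.412 and 0.204 in bRG, 0.836 and 0.653 in bIP, and 5.25 and 6.01 in N. Neither N library came near another population, and N exceeded aRG by 5.26 on the log2 scale (SE 0.48, edgeR adjusted p 1.5e-06). The human interval there was 2104 bp shorter, and the gorilla one 265 bp longer, than in chimpanzee. Beside RPL12P3, a ribosomal protein pseudogene, chr20:32749976-32750816 read 0.274 and 0.21 CPM in aRG, 0.412 and 0.544 in bRG, 2.07 and 1.61 in bIP, and 7.73 and 8.52 in N. It was higher in bIP than in glia and higher again in N (N against aRG 5.04, SE 0.38, edgeR adjusted p 4.4e-07), and its flanks were equally spaced in all 3 species. Beside AC020589.1, chr4:34215171-34216439 had 0.313 and 0.294 CPM in aRG, 0.441 and 0.748 in bRG, 0.436 and 0.499 in bIP, and 5.74 and 10.3 in N. There bIP overlapped the glia and only N stood apart (N against bIP 4.09, SE 0.41, edgeR adjusted p 3.4e-05), and the human interval was shorter by 10281 bp against a gorilla difference of -12 bp.

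The following members were taken for their large fall from aRG to N, and the last one also for its fall from bIP to N. High levels in the groups compared, their gap to N and its small p-value follow from the choice. Beside RN7SL706P, a pseudogene of the signal recognition particle RNA, chr14:48953571-48954976 measured 38.9 and 41 CPM in aRG, 36.1 and 40.8 in bRG, 4.69 and 11.6 in bIP, and 1.34 and 1.26 in N. Both N libraries were below every bIP library and these below every glial one, and N lay below aRG with a log2 fold change of -4.94 (SE 0.34, edgeR adjusted p 2.5e-07). Its interval was 3447 bp shorter in human and 18 bp longer in gorilla. Beside AC122710.1, chr5:6776073-6776936 had 15.6 and 11 CPM in aRG, 14.6 and 10.2 in bRG, 1.82 and 2.96 in bIP, and 0.404 and 0.275 in N (N against aRG -5.26, SE 0.41, edgeR adjusted p 5.2e-07). The aRG and bRG values overlapped and exceeded all others, and the human interval was 2959 bp shorter, against a gorilla difference of 167 bp. Beside HMGB3P23, a pseudogene, chr9:31607859-31608679 read 21.5 and 18.6 CPM in aRG, 18.8 and 16 in bRG, 4.07 and 5.41 in bIP, and 0.497 and 0.314 in N. It had the same order (N against aRG -5.59, SE 0.31, edgeR adjusted p 6.4e-08), but its human interval differed by -579 bp, less than the member's own width. The choroid plexus and interneuron marker regions were lower in N too (35.8 to 39.1 CPM in aRG and 8.1 to 9.15 in N for the former), and their part in these members was not tested.

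The next members were taken for a large fall from bIP to N (the first ones) or a large rise from aRG to bIP (the last). High bIP values, the gap between those groups and its small p-value follow from the choice. Beside NRSN1, which encodes a neuronal vesicle membrane protein, chr6:21051825-21053067 had 2.98 and 3.4 CPM in aRG, 2.74 and 3.33 in bRG, 21.1 and 24.9 in bIP, and 2.48 and 1.61 in N. Only bIP was high, and N fell below it (log2 fold change -3.48, SE 0.29, edgeR adjusted p 1.4e-05). Beside TLN2, the gene of talin 2, which links integrins to actin, chr15:40967543-40968542 had 2.08 and 1.34 CPM in aRG, 1.35 and 1.74 in bRG, 10.7 and 10.3 in bIP, and 0.776 and 0.511 in N (N against bIP -4.0, SE 0.35, edgeR adjusted p 1.9e-05). Again both bIP libraries were above all others. Their human intervals were 688 and 752 bp shorter and the gorilla ones 39 and 33 bp shorter, so the human shortfall was under the width of either member. Beside the pseudogene EIF4A1P7, chr13:8219035-8219745 rose from 1.49 and 0.84 CPM in aRG and 0.677 and 0.953 in bRG to 13.2 and 11.9 in bIP, and had 4.91 and 3.06 in N. All bIP values exceeded all others (bIP against aRG 3.41, SE 0.37, edgeR adjusted p 2.5e-05), in an interval 926 bp shorter in human and 22 bp shorter in gorilla.

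Other members, also taken for a large rise from aRG to bIP without overlap, were high in neurons too. Between regions assigned to TCF15, a transcription factor gene of the paraxial mesoderm, and to SRXN1, the gene of the antioxidant enzyme sulfiredoxin, 2 members lay in a single interval that was 1664 bp shorter in human and 2 bp longer in gorilla. The left one, chr20:1145990-1146620, had 0.548 and 0.42 CPM in aRG, 0.5 and 0.544 in bRG, 6 and 5.11 in bIP, and 8.2 and 7.58 in N. The right one, chr20:1147040-1147760, had 0.392 and 0.882 in aRG, 0.618 and 0.578 in bRG, 7.2 and 8.18 in bIP, and 5.74 and 4.71 in N. In both, every bIP and N library was above every glial library, and bIP exceeded aRG by 3.5 (SE 0.33, edgeR adjusted p 1.3e-05) and 3.59 (SE 0.37, edgeR adjusted p 2.1e-05) on the log2 scale. They sit side by side and are not independent examples. Near JCAD, which encodes a protein of endothelial cell junctions, chr10:30220245-30221306 had 0.979 and 1.34 CPM in aRG, 1.53 and 0.953 in bRG, 16.2 and 10.4 in bIP, and 12.6 and 14 in N. The bIP and N values overlapped far above the glia (bIP against aRG 3.52, SE 0.34, edgeR adjusted p 1.5e-05), while its human spacing differed by only -10 bp and the gorilla one by -1107 bp.

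Some members taken for a large fall from bIP to N without overlap were open in glia as well. That N is below bIP follows from the choice. Beside P2RY1, a receptor for extracellular ADP, chr3:150970575-150971758 had 21.4 and 27.8 CPM in aRG, 17.6 and 26.2 in bRG, 8.79 and 16.5 in bIP, and 1.15 and 0.943 in N. The N libraries were below all others (N against bIP -3.58, SE 0.34, edgeR adjusted p 2.4e-05), in an interval 1649 bp shorter in human and 582 bp shorter in gorilla. Beside the pseudogene ELL2P3, chr13:49490300-49491236 had 9.75 and 11.7 CPM in aRG, 6.77 and 9.63 in bRG, 7.49 and 15.2 in bIP, and 0.404 and 0.432 in N. Glial and bIP values overlapped and N was again apart (N against bIP -4.75, SE 0.42, edgeR adjusted p 1.9e-05). Its interval had a human shortfall of 29478 bp and a gorilla difference of -199 bp.

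Between the 2 kinds of radial glia no member passed the test. Among the 4 members with the smallest unadjusted p was chr18:52390301-52391358, beside AC107896.1, with 0.744 and 0.756 CPM in aRG, 1.5 and 1.74 in bRG, 2.51 and 2.46 in bIP, and 18 and 22 in N. The bRG libraries lay above the aRG ones without overlap, yet the log2 fold change of 1.10 (SE 0.31) had an adjusted p of 1 by edgeR. The same member differed strongly among the 4 populations jointly (edgeR adjusted p 1.6e-07), with its highest values in N.

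In all, 10 members lay beside a gene of the 11 lists on cortical cell types and pathways, and 9 of the 10 differed among the populations, where 73.5% of all regions did. No member had a neighbour from the lists of radial glia, neuronal or other-cell genes. The adhesion and axon guidance list had 4 members, of which 2 rose and 2 fell in N against aRG. UNC5C encodes a netrin receptor that repels growing axons. Both regions next to chr4:92861323-92862664 are assigned to it, at 184723 and 176788 bp from the gene, and the member had 13.8 and 11.8 CPM in aRG, 10.9 and 11.9 in bRG, 4.54 and 5.64 in bIP, and 1.61 and 1.73 in N. The levels stepped down from glia to bIP to N without overlap (N against aRG -2.94, SE 0.27, edgeR adjusted p 1.4e-06), and the interval was 5420 bp shorter in human and 7 bp shorter in gorilla. CNTN3 encodes a contactin, a neuronal adhesion molecule. Regions assigned to it, 155613 and 172114 bp from the gene, flank a pair of members that share an interval 5375 bp shorter in human and 19 bp shorter in gorilla.

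The left member of the CNTN3 pair, chr3:74927503-74927919, had 0.235 and 0.126 CPM in aRG, 0.235 and 0.204 in bRG, 1.42 and 1.8 in bIP, and 2.48 and 2.32 in N. The right one, chr3:74929803-74930770, had 0.783 and 0.462 in aRG, 0.471 and 0.68 in bRG, 2.87 and 3.49 in bIP, and 3.76 and 5.22 in N. Both rose in bIP and in N, with log2 fold changes in N against aRG of 3.69 (SE 0.43, edgeR adjusted p 9.7e-06) and 2.83 (SE 0.38, edgeR adjusted p 2.7e-05), and bIP and N were not told apart by the test. Near chr3:1352584-1353525 the closest region is assigned to CNTN6, a related contactin gene 25488 bp from it. This member went the other way, from 4.7 and 9.16 CPM in aRG and 4.06 and 7.18 in bRG to 0.509 and 1.8 in bIP and 0.248 and 0.275 in N. N was lowest and the glia highest (N against aRG -4.71, SE 0.61, edgeR adjusted p 2.2e-05). Its spacing was 261 bp longer in human and 498 bp longer in gorilla than in chimpanzee.

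**Figure D4:**
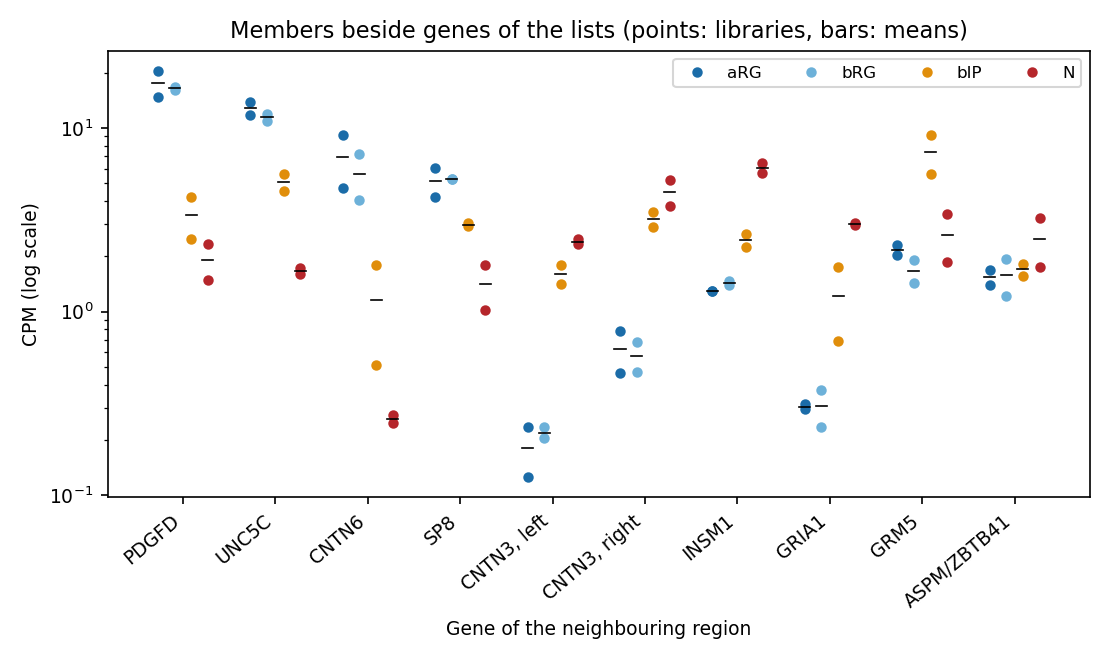
CPM on a log axis of the 10 members beside genes of the lists, by the gene of the neighbouring region, with each library as a point and the mean of 2 as a bar, coloured by population. The PDGFD, UNC5C, CNTN6 and SP8 members fall from aRG to N, the CNTN3, INSM1 and GRIA1 members rise, and the GRM5 member is highest in bIP.

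PDGFD, a growth factor gene known from radial glia, is the gene of both regions next to chr11:99979433-99980618, which lie 40183 and 20181 bp from it. The member had 20.4 and 14.7 CPM in aRG, 16.8 and 16 in bRG, 2.47 and 4.22 in bIP, and 2.33 and 1.49 in N. Glia were higher than bIP and N in all libraries (N against aRG -3.18, SE 0.32, edgeR adjusted p 2.9e-06). The spacing was 379 bp longer in human and 35 bp longer in gorilla, which counts as equal at 0.5 of the member's width. INSM1, a zinc-finger factor that promotes the formation of basal progenitors, is the gene of both regions next to chr20:20849140-20850322, which lie 101331 and 103274 bp from it. That member had 1.29 and 1.3 CPM in aRG, 1.47 and 1.39 in bRG, 2.65 and 2.26 in bIP, and 5.65 and 6.44 in N. Its levels rose from glia to bIP to N without overlap (N against aRG 2.22, SE 0.29, edgeR adjusted p 2.5e-05), and the interval was 2536 bp shorter in human and 12 bp longer in gorilla. The change between aRG and bIP, 0.92 (SE 0.30, edgeR adjusted p 0.023), lost its call without aRG 1, aRG 2 or bIP 1 (adjusted p 0.11, 0.1 and 0.11) and with DESeq2 (0.053).

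The synapse list had 2 members. Both regions next to chr5:131274195-131274933 are assigned to GRIA1, an AMPA receptor subunit gene, although 361612 and 352072 bp from it. The member had 0.313 and 0.294 CPM in aRG, 0.235 and 0.374 in bRG, 1.74 and 0.691 in bIP, and 2.95 and 3.02 in N. N was above all other libraries (N against aRG 3.28, SE 0.48, edgeR adjusted p 5.9e-05), and the spacing was equal in the 3 species. GRM5, a metabotropic glutamate receptor gene, is that of both regions next to chr11:84193021-84193683, at 26827 and 24861 bp. The member had 2.04 and 2.31 CPM in aRG, 1.91 and 1.43 in bRG, 9.12 and 5.6 in bIP, and 3.38 and 1.85 in N. Both bIP values exceeded all others (bIP against aRG 1.76, SE 0.36, edgeR adjusted p 0.0017), in an interval 1186 bp shorter in human and 14 bp longer in gorilla. SP8 encodes a transcription factor of interneuron lineages. A region at distance 0 from it lies 87 bp from chr7:20893488-20893751, which had 6.07 and 4.2 CPM in aRG, 5.3 and 5.27 in bRG, 2.91 and 3.03 in bIP, and 1.8 and 1.02 in N. It fell in N (log2 fold change -1.85, SE 0.34, edgeR adjusted p 0.00031), and the summed regions of the interneuron markers were lower there too, and the spacing there was equal. The member between a region assigned to ASPM, a spindle pole gene mutated in microcephaly, and a region assigned to ZBTB41, chr1:172368192-172369111, was named after its values were seen. It had 1.68 and 1.39 CPM in aRG, 1.21 and 1.94 in bRG, 1.82 and 1.57 in bIP, and 1.74 and 3.22 in N. Both N libraries lay above those of aRG, and all other pairs of groups overlapped. The member did not pass the joint test (edgeR adjusted p 0.29), although its interval was 2284 bp shorter in human and 268 bp shorter in gorilla.

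Among members in the intervals shorter in human alone, 180 of 234 tested (76.9%) differed among the populations, where 73.5% of all regions did. In N against aRG 87 were higher and 79 lower, where 37.2% and 31.7% of all regions were. Among the members with equal spacing, 150 of 216 (69.4%) differed, with 70 higher and 70 lower. The median levels differed more: 1.22 CPM in aRG and 1.67 in N where the human interval was shorter, and 1.76 and 2.32 where the spacing was equal. These CPM are not per kilobase, and the classes are set relative to member width. The median widths were 822.5 bp and 913 bp. All 4 peak lists covered 33 of 238 (13.9%) of the former and 52 of 218 (23.9%) of the latter. These shares were not tested against each other.

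The interval with most members among those shorter in human alone holds 4 and was singled out after its values were seen. It spans chr15:44534660-44546415 beside MIR4311, a microRNA gene, and its flanks lie 18779 bp apart in chimpanzee, 18795 in gorilla and 6632 in human. Summed over the 4 members, the levels were 8.11 and 7.39 CPM in aRG, 7.94 and 5.75 in bRG, 17.6 and 12 in bIP, and 25.2 and 21.3 in N. The sums rose from glia to bIP to N without overlap. All 4 members were higher in N than in aRG under every setting tried, where 37.2% of all regions were, but the interval was picked with these values in view. The strongest member, chr15:44539777-44541439, had 5.64 and 5.17 CPM in aRG, 5.91 and 3.74 in bRG, 10.4 and 6.83 in bIP, and 12.6 and 10.3 in N (N against aRG 1.09, SE 0.30, edgeR adjusted p 0.0056), and its bIP and N values overlapped. The leftmost, chr15:44534660-44535074, changed most between N and aRG, from 0.548 and 0.714 CPM in aRG and 0.588 and 0.919 in bRG to 2.73 and 1.61 in bIP and 6.58 and 5.77 in N (3.29, SE 0.38, edgeR adjusted p 9.3e-06). The rightmost, chr15:44546127-44546415, was instead highest in bIP, at 2.11 and 1.77 CPM, with 1.49 and 1.26 in N, 0.235 and 0.126 in aRG, and 0.147 and 0.17 in bRG (bIP against aRG 3.38, SE 0.44, edgeR adjusted p 8.7e-05).

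**Figure D5:**
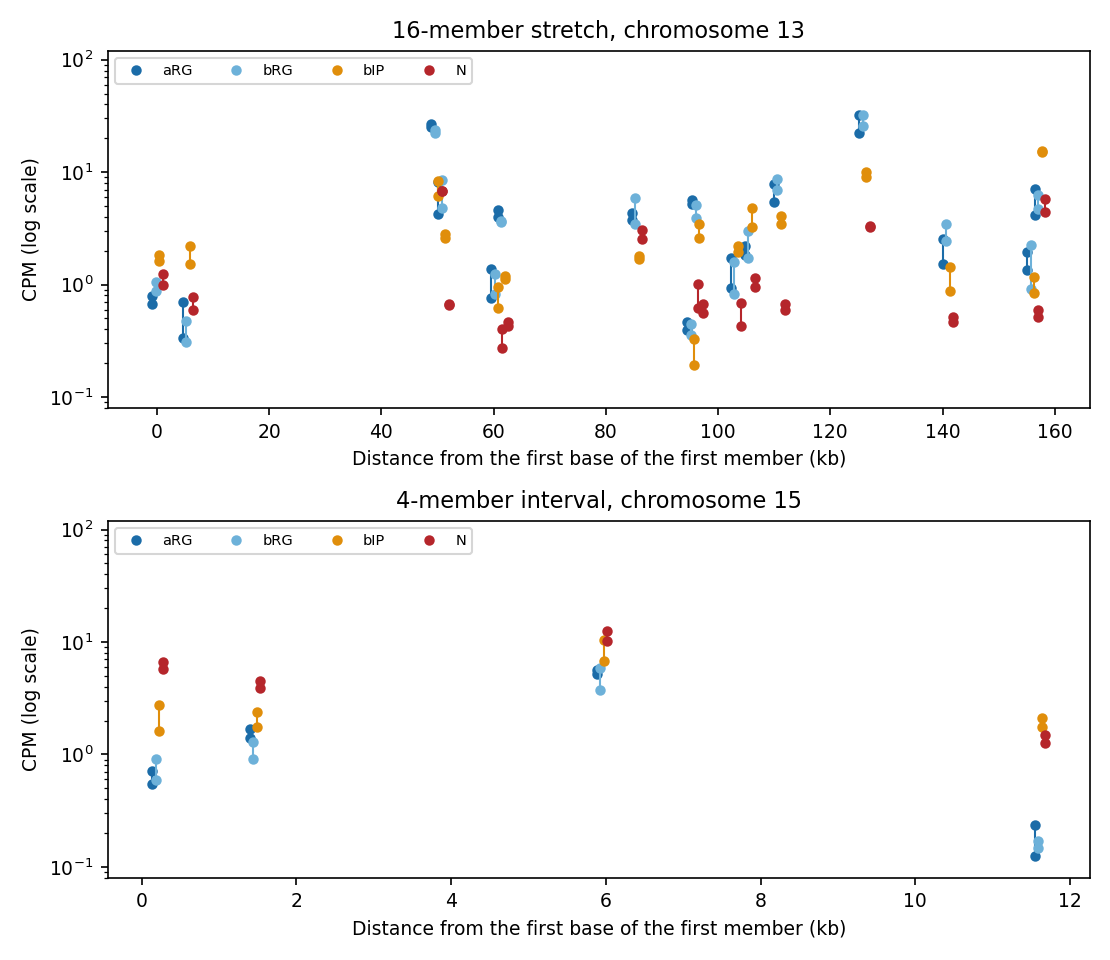
CPM (log axis) of each member of the 16-member stretch on chromosome 13 (top) and of the 4-member interval on chromosome 15 (bottom), against the distance in kilobases from the start of the leftmost member. Points are libraries joined by a bar within a population, shifted sideways for clarity, and N is the lowest population at most of the 16 and the highest at 3 of the 4.

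The densest stretch of members, 16 of them, spans chr13:92962577-93120592, between regions assigned to the non-coding gene LINC00354. Its flanks are 164391 bp apart in chimpanzee, 156162 in gorilla and 67772 in human, so it counts among the intervals that differ in gorilla as well. Summed CPM was 104 and 86.7 in aRG, 104 and 87.1 in bRG, 57.4 and 57.3 in bIP, and 27 and 24.9 in N. These sums kept the order glia, bIP, N without overlap, and the members with the highest levels, given below, weigh most in them. Single members varied, with the highest mean in aRG at 5, in bRG at 5, in bIP at 5 and in N at 1. All 16 members differed among the populations, where 73.5% of all regions did. In N against aRG 11 fell and 0 rose, with 31.7% lower and 37.2% higher over all regions, and in bIP against aRG 7 fell and 4 rose, with 22.6% and 24.5%. Without aRG 1, 7 fell in N against aRG. Under at least 1 of the settings tried, 5 of the 16 lost the joint call and 7 of the 11 their call between bIP and aRG. The member with the highest level, chr13:93087700-93089689, had 32.3 and 22.1 CPM in aRG, 32.2 and 25.5 in bRG, 9.05 and 10.1 in bIP, and 3.23 and 3.34 in N (N against aRG -3.05, SE 0.22, edgeR adjusted p 3e-07). Next to it in level, chr13:93011782-93013117 had 25.4 and 26.8 CPM in aRG, 22.4 and 23.9 in bRG, 6.11 and 8.33 in bIP, and 6.74 and 6.83 in N, so that bIP and N overlapped (N against aRG -1.94, SE 0.18, edgeR adjusted p 1.8e-06). At the right end, chr13:93119236-93120592 was highest in bIP, with 15.5 and 15.1 CPM against 7.01 and 4.12 in aRG, 6.24 and 4.73 in bRG, and 5.81 and 4.44 in N (bIP against aRG 1.46, SE 0.29, edgeR adjusted p 0.0015).

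The next stretches were smaller. On chromosome 9, 6 members in chr9:11981589-12041465 beside AL589678.1 had flanks 209784 bp apart in chimpanzee, 214412 in gorilla and 128177 in human. In N against aRG, 2 of them fell and 2 rose, where 31.7% and 37.2% of all regions did. The strongest, chr9:11981589-11982955, went from 13 and 7.98 CPM in aRG and 8.68 and 8.51 in bRG to 1.74 and 2.76 in bIP and 0.652 and 0.589 in N (N against aRG -4.07, SE 0.37, edgeR adjusted p 1.6e-06), with no overlap between glia, bIP and N. On chromosome 22, 5 members in chr22:8343918-8405838 lay between AL022324.3 and IGLVIVOR22-1, an immunoglobulin lambda variable pseudogene, with flanks 126423 bp apart in chimpanzee, 113132 in gorilla and 14641 in human. Its strongest member, chr22:8381203-8383655, had 6.66 and 5.75 CPM in aRG, 6.68 and 5.38 in bRG, 6.98 and 4.72 in bIP, and 7.3 and 6.68 in N, and did not pass the joint test (edgeR adjusted p 0.82). Of the 5, 3 passed it, where 73.5% of all regions did. In N against aRG 2 fell and 0 rose, against 31.7% and 37.2% of all regions. One of the 2, chr22:8395795-8396306, had 2.19 and 2.31 CPM in aRG, 1.91 and 1.67 in bRG, 0.218 and 0.384 in bIP, and 0.0621 and 0.0786 in N, the last being 2 counts in each library, and the glia were above all others (N against aRG edgeR adjusted p 2.9e-06). The other, chr22:8343918-8344625, lost its call without aRG 2 (adjusted p 0.093) or N 2 (0.1). How reads that match duplicated sequence were treated is not stated in the labels or headers, so levels at such places are uncertain.

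The members with the highest levels overlapped a peak in all 4 lists. One, chr2B:18860206-18864190, was far above the rest, with 2660 and 3120 CPM in aRG, 2330 and 2570 in bRG, 2370 and 3000 in bIP, and 2650 and 3710 in N, which is 0.227 to 0.374% of a library. Both bRG libraries lay below those of aRG and of N, and all other pairs of groups overlapped. The joint test was not passed (edgeR adjusted p 0.49), although it was with the library number as a block (0.00011). That result also changed without N 1. Without this member the others held 0.374 to 0.397% of each library. Whether reads of duplicated sequence add to this member's level was not tested. The following 9 members lay between 32.2 and 87.4 CPM. Beside ISCU, the gene of the iron-sulfur cluster scaffold, chr12:106210020-106213005 had 65.5 and 64.2 CPM in aRG, 60.1 and 58.7 in bRG, 51.2 and 54.8 in bIP, and 55.5 and 59.7 in N. Beside ADAM10, a membrane protease gene, chr15:37201561-37203429 had 57.7 and 61.1 in aRG, 52.9 and 53.2 in bRG, 47.1 and 50.9 in bIP, and 51.9 and 55.9 in N. At these 2 the populations differed by far less than at the members above, with joint adjusted p by edgeR of 0.039 and 0.068. The first call was lost with library totals alone (0.53), with DESeq2 (0.4) and without aRG 1 (0.14), among others, and the other was gained without bIP 2 (0.0098), with relative log expression factors (0.034) and with the library number as a block (0.028).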

How the data were processed

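Bulk ATAC-seq was done on 8 libraries, 2 for each of 4 sorted populations. The authors deposited whole-number read counts per region, unscaled, with identifiers in panTro6, hg38 and gorGor6, per the file headers. One consensus peak list per population, deposited by the authors, gives intervals and a -log10 q-value, of which the intervals and that value were used. The submitters' processing notes name bcl2fastq 2.20.0 and MACS2. The aligner and the way regions were matched between species are not named in the labels, notes or headers used here. The deposited identifier columns (strings, of another kind than counts) supplied the coordinates, printed from 1 in panTro6.

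Of 218080 regions in the table, 6725 without a chimpanzee identifier, with a total count of 0, and 7 repeated ones were left out. Counts of all 211348 were fitted with edgeR 4.0.16 in R 4.3.3 (TMM scaling, filterByExpr, robust quasi-likelihood fit of population over 8 libraries, common biological coefficient of variation 0.216), and p-values were adjusted by Benjamini-Hochberg over 198227 regions. CPM uses TMM-scaled totals. The script was tested on simulated data. DESeq2 1.42.0, other scalings, no filter, peak regions only, leaving out each library, and a block for the library number were tried.

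Named members were, for N against aRG, bIP against aRG and N against bIP, the 8 called with the largest change in each direction, without overlap and with at least 2 CPM in the higher group; the 4 smallest p for bRG against aRG; the 10 highest levels; called members beside list genes; and the 3 stretches with most members. Those described in full were picked among them for their neighbour gene or spacing after their values were seen. The rule was to use the table's closest gene, which is empty for members. Genes of the nearest flanking region with a gene on each side, within 50 kb, replaced it. A part of the rule on members inside a gene start could not be applied. Spacing classes were set after seeing the data. The members and the lists were chosen with earlier results of these data known. No sequence is printed, as no genome of these builds was used here.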

Additional observations from a re-analysis of the deposited data

How the results depend on the processing

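Calls among members were steady in most settings. Leaving out each library in turn gave 705 to 751 members called among the populations, 597 to 716 for N against aRG, 613 to 727 for N against bRG, 338 to 444 for N against bIP, 328 to 523 for bIP against aRG and 291 to 485 for bIP against bRG, the lowest of the last 2 without bIP 1. With 1 library left in a population, that library is assumed to vary like the others. A block for the library number gave 819, 748, 763, 541, 571 and 531 in the same order and 0 for bRG against aRG. Same-numbered libraries deviated together with correlations of 0.116 to 0.313, but with 2 numbers that the labels do not explain they share only a number. DESeq2 gave 692, 642, 649, 389, 406, 379 and 0. Median log2 fold changes moved with the scaling. With library totals alone they were 0.1 for bRG against aRG, 0.09 for bIP against aRG, 0.04 for bIP against bRG and 0.09 for N against aRG. Relative log expression factors gave -0.13 for N against aRG, -0.12 for N against bRG and -0.21 for N against bIP, and DESeq2 -0.13, -0.12 and -0.22. Among peak regions only, the medians were -0.0 (bIP against aRG), 0.01 (bIP against bRG), 0.14 (N against aRG), 0.15 (N against bRG) and -0.05 (N against bIP). Leaving out a library gave -0.08 to -0.05, -0.1 to -0.04, -0.21 to -0.02, -0.19 to 0.02 and -0.24 to -0.08 for these 5. Easing the spacing tolerance gave 277 members against 238. The chromosome 13 stretch had 7 to 11 members lower in N than in aRG when a library was left out, and 7 of 11 among peak regions only, where the other 5 are not tested. The causes of the rest were not tested. Of 2866 values of single members under these settings, 2728 kept their side of the threshold, 124 lost the call, 14 gained it and 0 changed direction. With 2 libraries a population, changes of small size at about 1 CPM rest on few reads and may have been missed. How often was not tested.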

Other observations

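Of the 62 members on chromosome X, 61 were tested and 49 differed among the populations, where 73.5% of all regions did. In N against aRG 22 were higher and 21 lower, with 37.2% and 31.7% over all regions and a median log2 fold change of 0.23. Their strongest member, chrX:149850786-149851953, whose nearest region with a gene is assigned to LINC01238, had 82.9 and 87.4 CPM in aRG, 79.1 and 74.8 in bRG, 66.8 and 69.2 in bIP, and 74.2 and 79.7 in N. The aRG libraries were highest and the bIP libraries lowest (joint edgeR adjusted p 0.013), but the call was lost with library totals alone (0.25), with DESeq2 (0.36) and without aRG 2 (0.075).

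The spacing plot also shows a group of members at which the human interval is slightly longer. A window of 250 to 400 bp, set after seeing the plot, with the gorilla spacing within 50 bp of the chimpanzee one, held 41 of the 938 members measured, 4.37%, against 1.87% of the regions present in all 3 species. By the classes above, 27 of the 41 counted as equal and 14 as longer in human. All 41 were tested and 34 differed among the populations (82.9%), with 15 higher and 15 lower in N against aRG. Of the 3473 regions tested in the same window with identifiers in all 3 species, 75% differed, with 1322 higher and 1114 lower. A called peak overlapped 37 of the 41, and 2299 of the 3712 such regions. The human sequence in these intervals was not examined.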
